A study of Saccharomyces cerevisiae with 24 samples.

Results

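The genes described here are the 9 arginine genes ARG1, ARG3, ARG4, ARG5,6, ARG7, ARG8 and CPA1, which make arginine, and CAR1 and CAR2, which break it down. They were chosen by gene symbol from the 6612 transcripts of the deposited table, for their role in arginine metabolism, and all 9 passed the filter on low values that 6357 genes passed. The set was proposed with results of these libraries in view, and no source used here names the comparison behind that choice. No count or p-value below is therefore evidence gathered independently of the choice, and counts of members called are given with the share of all genes called.

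RNA was sequenced from budding yeast (Saccharomyces cerevisiae) whose transcription activator Sfp1 carried a MYC tag with the marker KanMX (SFP1-MYC::KanMX) and was either unchanged (WT) or had arginine (K655/657R) or glutamine (K655/657Q) in place of both lysines named in the alleles. Lysine can be acetylated and arginine is not, while glutamine resembles acetyl-lysine in having no charge. Each strain was sampled in YPD, a rich medium with 2% glucose, in medium with 2% raffinose as the only carbon source, and 15 and 30 min after glucose was added back to 2%, with 2 libraries in each of the 12 groups. According to the labels all strains shared loss-of-function alleles of ADE2, HIS3, LEU2, TRP1 and URA3, which make cells need the matching supplements, and can1-100, an allele of the arginine permease gene CAN1. The labels also name the cell line LPY, and the strain table of the study lists wild-type and mutant SFP1-MYC strains in an LPY parent. That parent has no can1 or ade2 allele, and its his3, trp1 and ura3 alleles are not those of the labels. The W303 parent in the same table has can1-100 and an ade2 allele. Whether these cells lacked the permease or ADE2 function is therefore unsettled. Neither source says whether a mutant is 1 clone, or whether the 2 replicates were separate cultures, so the p-values measure only the spread between these libraries.

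Yeast makes arginine from glutamate. Acetylated intermediates are turned into ornithine in the mitochondrion by acetylglutamate synthase (Arg2), acetylglutamate kinase and the next reductase (both from ARG5,6), acetylornithine aminotransferase (Arg8) and ornithine acetyltransferase (Arg7). Ornithine is exported, joined to carbamoyl phosphate by ornithine carbamoyltransferase (Arg3), and carried on to arginine by argininosuccinate synthetase (Arg1) and argininosuccinate lyase (Arg4), with carbamoyl phosphate supplied by a synthetase that contains Cpa1. Breakdown starts with arginase (Car1), which splits arginine into urea and ornithine, and continues with ornithine transaminase (Car2). Gcn4, the activator of general amino acid control, switches on most synthesis genes, whereas the ArgR/Mcm1 complex represses several of them and induces CAR1 and CAR2 when arginine is present, and Ume6 represses CAR1 through its URS1 element.

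The sequences below show where the core letters of the Gcn4 site and of URS1 lie in front of these genes. Both strands of the 400 bases before each start codon were searched for TGACTC (or GAGTCA) and for TAGCCGCC (or GGCGGCTA) in the RefSeq copy of genome build R64, and each line prints 30 bases, 5′ to 3′ on the strand of the gene, with the matching letters in capitals.
ARG1 first match, chrXV:218854-218883, forward strand: gtgattttttagTGACTCatgtcgcatttg
ARG1 second match, chrXV:218925-218954, forward strand: tgccgtatggaaGAGTCAtttaaaggcagg
ARG3, chrX:268473-268502, forward strand: agggtcacgtcgTGACTCatatgctttctt
ARG4, chrVIII:141564-141593, reverse strand: ttagtagatgaaTGACTCactttttggata
ARG5,6 first match, chrV:295175-295204, forward strand: ttcttatccgaaTGACTCagtctacatcaa
ARG5,6 second match, chrV:295221-295250, forward strand: ggtggtaattgaTGACTCttctattttttt
ARG7, chrXIII:396514-396543, reverse strand: ggacaggtaggaTGACTCactgcgtaattc
ARG8, chrXV:58567-58596, forward strand: cagctcgctatgTGACTCacttaaagtaca
CPA1, chrXV:882592-882621, forward strand: cttttcttttctTGACTCgtcgtttctttt
CAR2, chrXII:1012362-1012391, forward strand: cggctgactggcTGACTCgattgcatatat
CAR1 (URS1), chrXVI:339776-339805, forward strand: tcacttagcggTAGCCGCCgaggggtctaa

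All 7 synthesis genes and CAR2 held the Gcn4 letters, against 10.3% of 6001 genes searched in the same way. CAR1 did not hold them in this window. It held the URS1 letters, which were present in front of 1.80% of genes and of no other member. GATAAG (or CTTATC), the core bound by the GATA factors of nitrogen regulation, was in front of ARG1, ARG4, ARG5,6 and CPA1, against 18.8% of genes, and in ARG5,6 the first base of that match lay 10 bases before the first Gcn4 match. The match in front of CPA1 lay inside the short reading frame YOR302W (chrXV:882765-882842). A match of letters is a description and not a binding site. The coding sequences, in the same build, lie on 7 chromosomes. On chromosome XV are ARG8 (YOL140W, chrXV:58759-60030), ARG1 (YOL058W, chrXV:219211-220473) and CPA1 (YOR303W, chrXV:882899-884134), all on the forward strand. The other forward genes are ARG5,6 (YER069W, chrV:295410-298001), ARG3 (YJL088W, chrX:268799-269815), CAR2 (YLR438W, chrXII:1012501-1013775) and CAR1 (YPL111W, chrXVI:339944-340945). ARG4 (YHR018C, chrVIII:140011-141402) and ARG7 (YMR062C, chrXIII:395054-396379) are on the reverse strand. No member overlaps another coding gene of the RefSeq annotation or shares a run of 31 bases with one. The deposited table also lists reading frames outside that annotation, for which overlap was not checked.

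Levels are TPM, which express each transcript as a share of its library after correction for length, divided by a size factor per library, called scaled TPM. The files hold no counts, so the depth of the libraries is unknown. Over all genes, the root mean square of the log2 difference between replicates lay between 0.164 and 0.238 in 11 groups. Replicate 2 of K655/657R at 30 min stood apart at 0.754, and its differences from replicate 1 followed coding length (Spearman rho -0.57 across 5718 genes, which are not independent). It was left out of the main fit, a choice that follows the methods of the study, and entered only the alternative with all 24 libraries. That group therefore has 1 library, whose values are given with no test. SFP1 itself was at 14.7 and 16.5 scaled TPM in K655/657Q and 11.6 and 12.5 in WT in YPD, a log2 difference of 0.35 that was not called. The codon changes themselves cannot be read from these values.

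A gene is called where limma gives a Benjamini-Hochberg adjusted p under 0.05 over all 6357 genes and the fold change is at least 1.5. Fold changes are on the scale of log2(scaled TPM + 1), which understates the change of genes at low levels. With 2 libraries against 2, an exact permutation test cannot go below p = 0.333, so every p comes from limma's estimate of the spread shared by all groups.

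**Figure D1:**
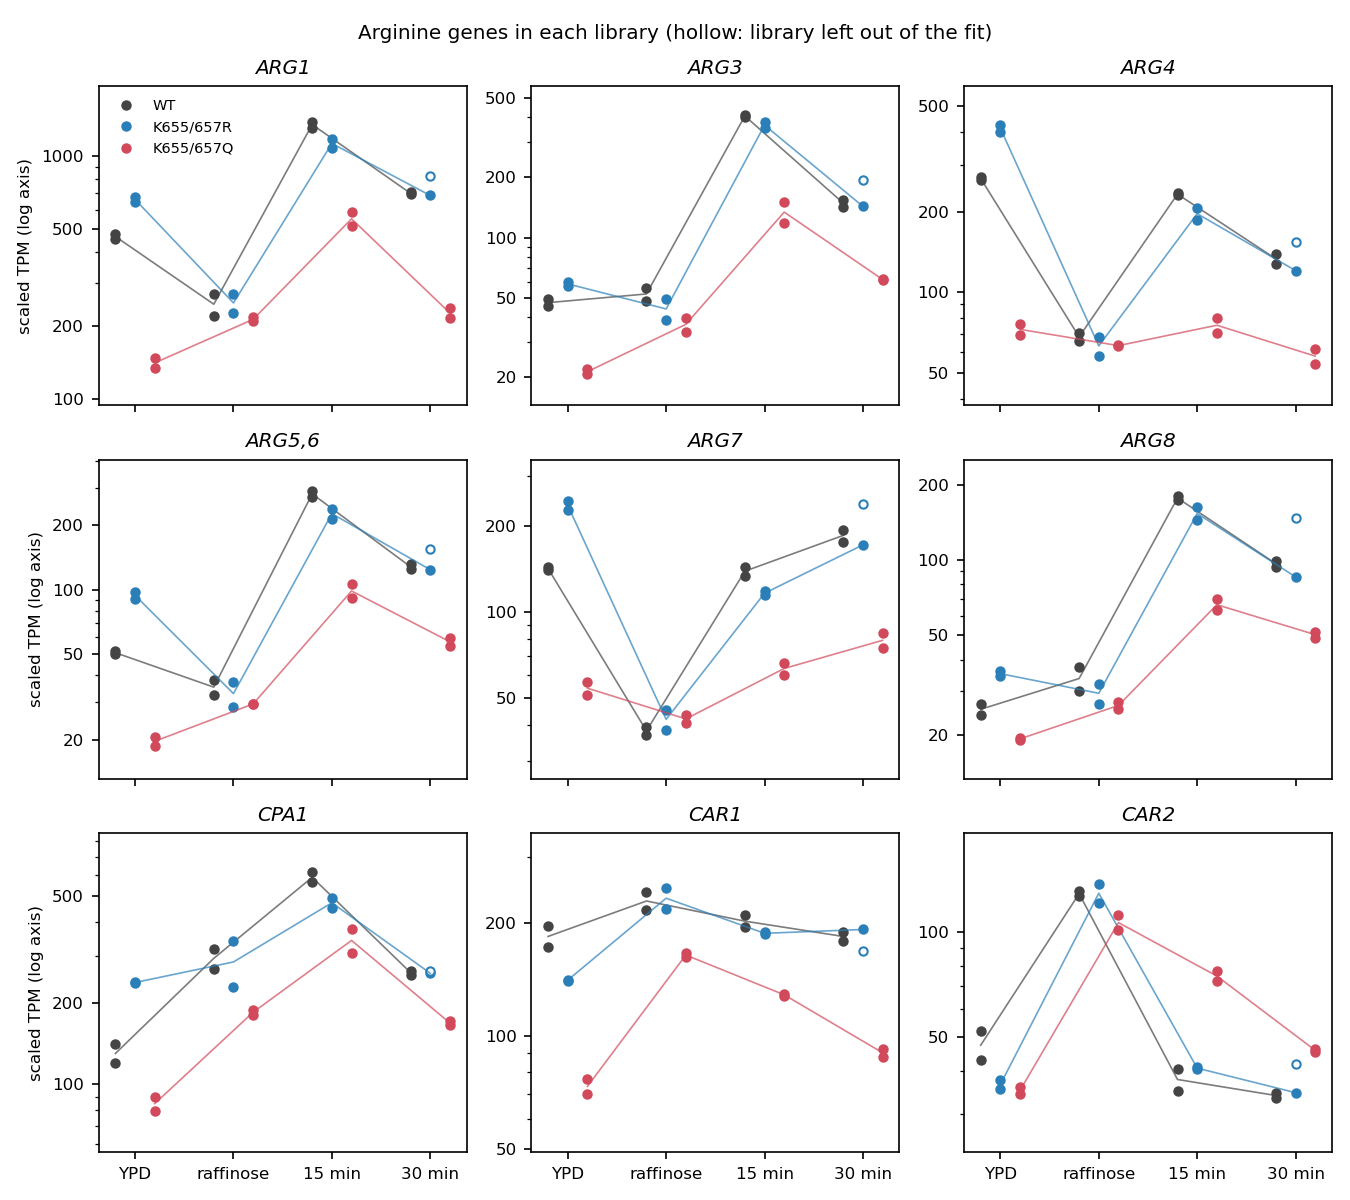
Scaled TPM on log axes (vertical) of the 9 genes in each library, by condition (horizontal) and strain (colours), with lines through the group means and the left-out library hollow. In YPD the K655/657Q points of all genes but CAR2 lie below both other strains, and in raffinose the strains lie close together for ARG1, ARG4 and ARG7.

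In YPD the arginine genes were low in K655/657Q. ARG4, for argininosuccinate lyase, was at 68.9 and 76.3 scaled TPM in K655/657Q against 269 and 264 in WT, which is 3.64-fold lower (log2 fold change -1.86, SE 0.09, adjusted p = 8.9e-10, limma). ARG1, for argininosuccinate synthetase and the synthesis gene at the highest level, was at 135 and 147 against 474 and 456, 3.29-fold lower (log2 -1.72, SE 0.10). In both genes the 2 K655/657Q libraries lie far below the 2 WT libraries and the groups do not overlap. Arginase shared this direction, with CAR1 at 69.8 and 76.7 in K655/657Q and 196 and 172 in WT (log2 -1.31, SE 0.08, adjusted p = 9.9e-09).

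Of the 9 genes, 7 were called lower in K655/657Q in YPD and 0 higher, where 13.7% of all genes were called and 7.06% were called lower. The median over the 9 was -1.31 on the log2 scale, beside 0.01 over all genes tested. Besides those above, the called genes were ARG7 (-1.38), ARG5,6 (-1.33), ARG3 (-1.11) and CPA1 (-0.61). The aminotransferase gene ARG8 (-0.37) and the transaminase gene CAR2 (-0.41) had adjusted p of 0.0089 and 0.0020 and missed the fold threshold. CPA1 was near it and was not called without K655/657Q replicate 1 (-0.53) or without WT replicate 1 (-0.49), nor on TPM as deposited (-0.42) or with upper quartile scaling (-0.56). Scaling matters in YPD, because ACT1 itself had a log2 difference of -0.45 there. Dividing by ACT1 raised the median of all genes by about 0.40, put CPA1 at -0.17 and turned ARG8 to 0.05 and CAR2 to 0.02, while the other 6 stayed called.

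The synthesis genes went the other way in K655/657R in YPD. ARG5,6, for acetylglutamate kinase and the reductase after it, was at 97.4 and 91.0 scaled TPM in K655/657R and at 50.2 and 51.6 in WT, 1.83-fold higher (log2 0.87, SE 0.11, adjusted p = 2.5e-04, limma). ARG4 was at 423 and 399 in K655/657R, above the 269 and 264 of WT (log2 0.62). ARG7, for ornithine acetyltransferase, was at 244 and 228 against 144 and 139.8 (log2 0.73). CPA1, for the small subunit of carbamoyl phosphate synthetase, reached 240.1 and 238 in K655/657R and 141 and 119.5 in WT (log2 0.88).

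These 4 of 9 genes, all of synthesis, were called higher in K655/657R and 0 were called lower, where 1.64% of all genes were called and 1.09% were called higher. The remaining synthesis genes had positive values that missed a threshold (ARG1 0.50, ARG8 0.46, ARG3 0.31). Both breakdown genes had negative values in K655/657R that missed the fold threshold (CAR1 -0.38, CAR2 -0.36), which is the direction they had in K655/657Q. ARG4 was no longer called without K655/657R replicate 1 (0.58) or on TPM as deposited (0.55). The comparisons of the mutants share the WT libraries, so their values are set side by side and not correlated.

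**Figure D2:**
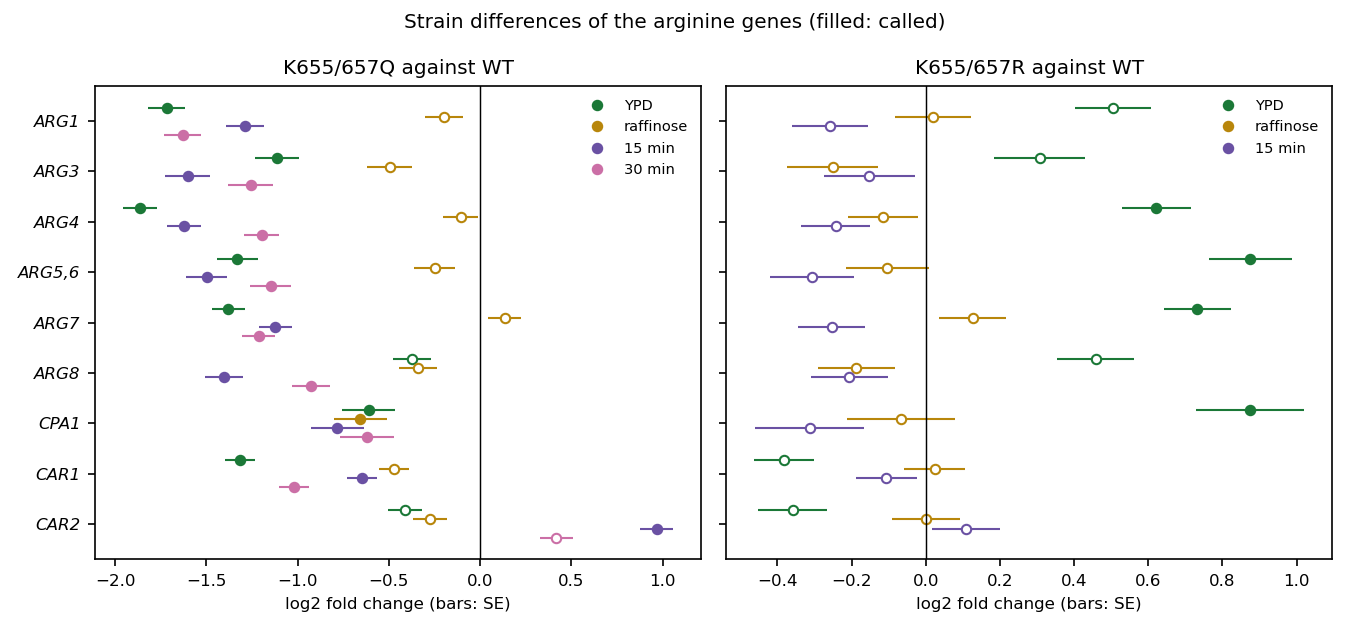
Log2 fold changes (horizontal) of each mutant against WT for the 9 genes (vertical) in each condition, with bars of 1 SE and filled points where the gene was called. K655/657Q lies below 0 for the synthesis genes in YPD and at 15 and 30 min, CAR2 lies at 0.97 at 15 min, and K655/657R lies above 0 for all 7 synthesis genes in YPD. The panels have scales of their own.

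The shift from YPD to raffinose lowered part of the synthesis pathway in WT and K655/657R. In WT, ARG4 went from 269 and 264 to 70.5 and 65.7 scaled TPM (log2 -1.95, SE 0.09). ARG7 went from 144 and 139.8 to 39.4 and 37.0 (log2 -1.87), and ARG1 from 474 and 456 to 271 and 219 (log2 -0.93). CPA1 rose instead, from 141 and 119.5 to 318 and 269 (log2 1.17, SE 0.15). CAR2 rose most, from 51.8 and 42.9 to 130.5 and 126 (log2 1.43, SE 0.09, adjusted p = 1.8e-09, limma).

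In all, 2 of 9 genes were called higher and 3 lower in WT, in a shift in which 37.5% of all genes were called, so a count of this size is not particular to arginine genes. In K655/657R 2 were called higher and 4 lower (34.3% of all genes called), the falls being ARG4 (-2.69), ARG7 (-2.47), ARG5,6 (-1.50) and ARG1 (-1.41). In K655/657Q, where 20.6% of all genes were called and 11.5% called higher, 5 were called higher and 0 lower. They were CAR2 (1.57), CAR1 (1.15), CPA1 (1.12), ARG3 (0.76) and ARG1 (0.59), and ARG4, at 63.4 and 62.9 in raffinose against 68.9 and 76.3 in YPD, was not called (-0.20). ARG1 was not called in K655/657Q without raffinose replicate 2 (0.56) or YPD replicate 1 (0.53). The fall of ARG1 in WT depends on scaling, since it was -0.52 on TPM as deposited and -0.21 scaled to ACT1, neither called, with the median of all genes shifted to 0.40 and 0.66.

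In raffinose K655/657R came close to WT, and K655/657Q did so for ARG1, ARG4 and ARG7. ARG4 was at 63.4 and 62.9 in K655/657Q, 68.1 and 57.9 in K655/657R and 70.5 and 65.7 in WT, so that the ranges of both mutants reach or come near to that of WT. Only CPA1 was called between K655/657Q and WT, at 189 and 182 against 318 and 269 (log2 -0.66, SE 0.15, adjusted p = 0.0053, limma), which is 1 of 9 genes where 3.57% of all genes were called and 2.17% called lower. It was not called without WT replicate 1 (-0.53, no member called), whereas ARG3 was called as well without K655/657Q replicate 2 (-0.61) or WT replicate 2 (-0.60). In the main fit ARG3 (-0.50), CAR1 (-0.47), ARG8 (-0.34) and CAR2 (-0.27) were also lower in K655/657Q and missed the fold threshold. Their adjusted p ran from 0.0011 to 0.046 (limma). CAR1 was at 166 and 162 in K655/657Q against 242 and 216 in WT. For K655/657R against WT, limma called 0 of 9 genes (0.173% of all genes) and 0 had an unadjusted p under 0.05 (15.9% of all genes did), with log2 differences from -0.25 to 0.13 and SE of 0.08 to 0.15.

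The change of the K655/657Q difference between the 2 media was tested as an interaction, and limma called it for 6 of 9 genes, all upward in raffinose, where 20.1% of all genes were called and 10.7% were called upward. ARG4 had the largest value among the 9 (1.76, SE 0.13, adjusted p = 1.3e-07), followed by ARG1 (1.52), ARG7 (1.52), ARG5,6 (1.08), CAR1 (0.84) and ARG3 (0.62). ARG3 lost the call without any 1 of 4 libraries, namely K655/657Q raffinose replicate 2 (0.50), K655/657Q YPD replicate 1 (0.57), WT raffinose replicate 2 (0.51) and WT YPD replicate 1 (0.55), and also on TPM as deposited (0.42) and with upper quartile scaling (0.58). With ACT1 scaling, which moved the median of all genes to -0.52, the values of ARG5,6, CAR1 and ARG3 were 0.50, 0.25 and 0.04 and not called, and CPA1, at -0.05 in the main fit, was called in the opposite direction (-0.63, adjusted p = 0.016, limma).

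Glucose raised the synthesis genes within 15 min. In WT, ARG5,6 went from 38.1 and 32.2 in raffinose to 271 and 289 scaled TPM, 7.80-fold (log2 2.96, SE 0.11, adjusted p = 2.3e-12, limma). ARG3, for ornithine carbamoyltransferase, went from 56.1 and 48.2 to 403 and 410.3 (log2 2.94), and ARG1 from 271 and 219 to 1378 and 1302 (log2 2.45). All 7 synthesis genes rose in WT, the least being CPA1 (log2 1.00). On the breakdown side CAR2 fell from 130.5 and 126 to 35.0 and 40.6 (log2 -1.74, SE 0.09), and CAR1 was at 209.6 and 194 after 242 and 216 (log2 -0.18, not called).

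The count was 7 of 9 genes called higher and 1 lower in WT, where 44.6% of all genes were called and 21.7% were called higher. K655/657R had the same numbers, 7 higher and 1 lower, with 46.9% of all genes called and 22.4% called higher. There too the genes called higher were the 7 of synthesis, and ARG3 had the largest value (3.04). CPA1 in K655/657R rested on 1 library, since its raffinose replicates were at 339 and 230.3, and without replicate 2 its rise was 0.47 in place of 0.75 and not called. On TPM as deposited it was 0.57, also not called. The test of the difference between the responses of K655/657R and WT called 0 of 9 genes with limma (0.283% of all genes), and 1 had an unadjusted p under 0.05 (19.5% of all genes did).

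In K655/657Q the pulse was followed by smaller rises of most synthesis genes. ARG5,6 went from 29.3 and 29.5 to 91.5 and 106 (log2 1.71, SE 0.11), where WT had reached 271 and 289. ARG4 stayed between 62.9 and 80.4 in the 4 libraries of raffinose and 15 min (log2 0.25, not called), while in WT it went from 70.5 and 65.7 to 235 and 231. ARG7 was at 60.2 and 66.3 after 40.9 and 43.3 (log2 0.58, just under the fold threshold, and called at 0.84 with ACT1 scaling and 0.62 with upper quartile scaling). CAR2 was at 72.2 and 77.2 at 15 min in K655/657Q and at 35.0 and 40.6 in WT. In raffinose it had been slightly lower in K655/657Q, at 112 and 101 against 130.5 and 126 (log2 -0.27, not called).

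In K655/657Q 5 of 9 genes were called higher and 0 lower in this response (40.9% of all genes called, 19.1% higher). The difference between the responses of K655/657Q and WT was called for 7 of 9 genes, 6 smaller and 1 larger, where 2.96% of all genes were called and 1.67% were smaller. ARG4 differed most among the synthesis genes (-1.51, SE 0.13, adjusted p = 9.2e-06, limma), then ARG7 (-1.26), ARG5,6 (-1.25), ARG3 (-1.11), ARG1 (-1.09) and ARG8 (-1.07). CAR2 had the opposite sign (1.24, SE 0.13), since it fell by 1.74 in WT and was at -0.50 in K655/657Q. CPA1 (-0.13) and CAR1 (-0.17) were not called. These comparisons within WT and K655/657Q use the same raffinose libraries at 15 and 30 min.

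At 15 min all 9 genes were called between K655/657Q and WT, 8 lower and 1 higher, where 4.73% of all genes were called and 2.47% were lower. ARG1 was at 514 and 585 in K655/657Q and 1378 and 1302 in WT (log2 -1.29), and ARG8 at 62.9 and 69.6 against 179.8 and 174 (log2 -1.40). The range over the 7 synthesis genes was -1.62 to -0.78. CAR2 was the gene called higher (log2 0.97, SE 0.09, adjusted p = 3.4e-06, limma), and CAR1 was lower (log2 -0.65). Between K655/657R and WT at 15 min limma called 0 of 9 genes and 0 of all genes. Of the 9, 5 had an unadjusted p under 0.05 (15.7% of all genes did). The 7 synthesis genes had values of -0.31 to -0.15, and in each both K655/657R libraries lay below both WT libraries. ARG1, for example, was at 1077 and 1164 in K655/657R.

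At 30 min the synthesis genes other than ARG7 were at lower levels in every strain than at 15 min, a step that was not tested. ARG1 in WT was at 692 and 706 scaled TPM after 1378 and 1302 at 15 min, and in K655/657Q at 215 and 236 after 514 and 585. ARG7 was at 194 and 176 in WT, above its 15 min values of 144 and 134, and at 74.4 and 84.4 in K655/657Q. Against raffinose, 6 of 9 genes were called higher and 1 lower in WT (42.5% of all genes called, 20.1% higher), and 4 higher and 2 lower in K655/657Q (38.3% called, 17.0% higher). In K655/657Q ARG1 (0.08) and ARG4 (-0.13) were not called at 30 min, whereas they rose by 1.52 and 0.96 in WT.

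Between K655/657Q and WT at 30 min, 8 of 9 genes were called lower and 0 higher, where 3.90% of all genes were called and 2.80% were called lower. ARG1 had the largest difference (-1.63, SE 0.10, adjusted p = 1.0e-07, limma), and CAR2 was at 45.4 and 46.1 against 34.6 and 33.4 (log2 0.42, under the fold threshold, and called at 0.65 on TPM as deposited). CPA1 (-0.62) was not called without K655/657Q replicate 2 (-0.60), on TPM as deposited (-0.38) or with upper quartile scaling (-0.55). The single K655/657R library at 30 min lay at or below the WT libraries for ARG1 (685 against 692 and 706), ARG4 (121 against 139 and 127) and ARG7 (172 against 194 and 176), and no test was made with 1 library.

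The 30 min response differed between K655/657Q and WT for 7 of 9 genes, 6 smaller and 1 larger, where 4.04% of all genes were called and 2.93% were smaller. ARG1 (-1.43, SE 0.15) and ARG7 (-1.35, SE 0.13) led the smaller ones, and CAR2 (0.69) was the larger one. ARG8 (-0.59) and ARG3 (-0.76) were not called with all 24 libraries (adjusted p of 0.33 and 0.090, limma), with ACT1 scaling (-0.43 and -0.60) or on TPM as deposited (-0.34 and -0.51), nor was ARG8 with upper quartile scaling (-0.53). ARG8 was not called without K655/657Q 30 min replicate 1 (-0.55), K655/657Q raffinose replicate 2 (-0.54), WT 30 min replicate 1 (-0.56) or WT raffinose replicate 2 (-0.43), and ARG3 without K655/657Q raffinose replicate 2 (-0.65), WT 30 min replicate 1 (-0.71) or WT raffinose replicate 2 (-0.65). CAR1 (-0.55) was called when K655/657Q 30 min replicate 1 (-0.59), WT 30 min replicate 2 (-0.59) or WT raffinose replicate 1 (-0.63) was left out.

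A ratio within each library does not depend on the size factor. The summed TPM of the 7 synthesis genes was divided by that of CAR1 and CAR2. Such sums give most weight to the genes at the highest levels. In WT at 15 min (replicate 1) ARG1 held 1362.9 of the 3137.5 TPM of synthesis, and CAR1 207.2 of the 241.8 of breakdown. In WT this ratio was 4.66 and 5.12 in YPD, 2.23 and 2.05 in raffinose, 13.0 and 13.4 at 15 min and 7.49 and 7.67 at 30 min. In K655/657Q it was 3.72 and 3.88 in YPD, 2.13 and 2.28 in raffinose, 6.12 and 6.95 at 15 min and 4.93 and 5.39 at 30 min. The K655/657Q libraries lie below the WT libraries in YPD and after the pulse, and the ratios of the strains overlap in raffinose. There both sums were lower in K655/657Q, at 669 and 664 TPM against 941 and 792 in WT for synthesis. For breakdown they were 315 and 291 against 422 and 387. In K655/657R the ratio was 9.94 and 9.63 in YPD, above all libraries of the other strains in that medium, then 2.19 and 1.91, 11.1 and 12.1, and 7.01 in the library kept at 30 min.

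**Figure D3:**
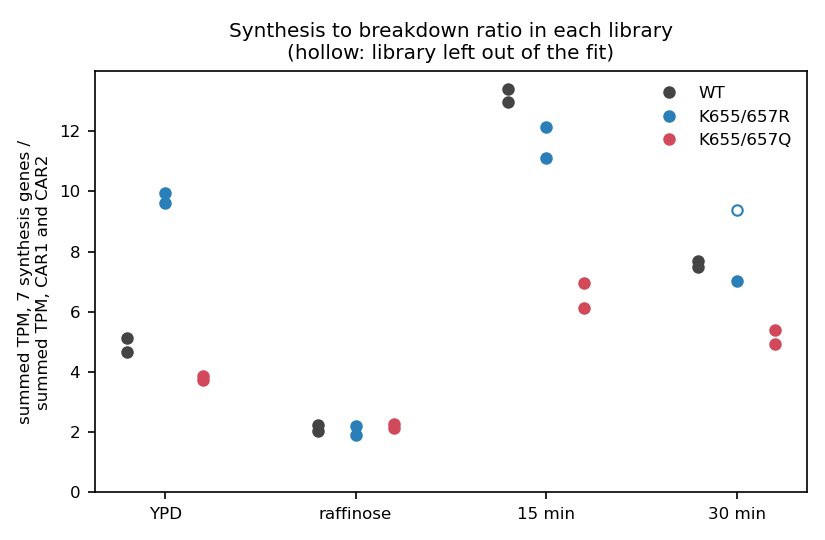
Summed TPM of the 7 synthesis genes divided by that of CAR1 and CAR2 (vertical, from 0) in each library, by condition (horizontal) and strain (colours), with the left-out library hollow. All strains meet near 2 in raffinose, K655/657R stands at 9.63 and 9.94 in YPD, and K655/657Q at 6.12 and 6.95 at 15 min against 13.0 and 13.4 in WT.

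The members did not all follow 1 course over the 12 groups. ARG3 spanned 19.1-fold from its lowest group mean (K655/657Q in YPD) to its highest (WT at 15 min), ARG5,6 14.3-fold, ARG1 9.52-fold, ARG8 9.15-fold and CPA1 6.92-fold between the same groups. ARG4 (7.13-fold) and ARG7 (6.19-fold) peaked instead in K655/657R in YPD. CAR1 (3.17-fold) and CAR2 (3.79-fold) had the narrowest spans and were highest in K655/657R in raffinose, where WT overlapped with it. As a description over 12 group means, which share strains and media, Pearson's r was 0.98 between ARG3 and ARG8 and 0.96 between ARG1 and ARG5,6, but 0.33 between ARG4 and ARG8. CAR1 and CAR2 had r = 0.37 with each other, and CAR2 had r = -0.82 with ARG7.

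Ordered by group mean, ARG1 ran from WT at 15 min (1340.1) and K655/657R at 15 min (1121) through WT at 30 min (699), K655/657R at 30 min (685), K655/657R in YPD (659.7), K655/657Q at 15 min (549.5) and WT in YPD (465). K655/657R in raffinose (248), WT in raffinose (245), K655/657Q at 30 min (225) and K655/657Q in raffinose (212) followed, with ranges that overlapped from each to the next, and K655/657Q in YPD (141) was last. For CAR2 the order began with raffinose in K655/657R (129), WT (128.5) and K655/657Q (106), the first pair overlapping, then K655/657Q at 15 min (74.7). Next came WT in YPD (47.3) and K655/657Q at 30 min (45.8), which overlapped. K655/657R at 15 min (40.7), WT at 15 min (37.8), K655/657R in YPD (36.6), K655/657Q in YPD (35.2) and K655/657R at 30 min (34.6) overlapped as neighbours, with WT at 30 min (34.0) last. Of the 11 neighbouring pairs, 3 to 6 overlapped in each of the 9 genes.

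Over the 4356 genes at a mean TPM of 10 or more, those whose pattern over the 12 group means was most like the average of the 7 synthesis genes were YER068C-A (Pearson's r 0.98), HOM3 (0.97), PXP2 (0.96), PCL5 (0.96) and GLN3 (0.96). Hom3 is aspartate kinase, Pcl5 is a cyclin that acts in the degradation of Gcn4, and Gln3 is a GATA activator of nitrogen genes. For the average of CAR1 and CAR2 they were YPL162C (0.95), BET2 (0.95), SDS23 (0.94), SFC1 (0.92) and PCK1 (0.92), of which Sfc1 is a mitochondrial succinate and fumarate carrier and Pck1 the gluconeogenic enzyme PEP carboxykinase. YER068C-A has no entry in the annotation used here, and by its systematic name it lies beside ARG5,6 (YER069W), so its reads may not be separate from those of ARG5,6. These are descriptions, and the measure was applied to all genes at once.

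The rest of the pathway was read from lists of genes set by their known roles. Of 3 other synthesis genes, 3 were called lower in K655/657Q in YPD, where 7.06% of all genes were. They were YOR302W, the leader peptide in front of CPA1 (-0.95), ORT1, the mitochondrial ornithine carrier (-0.73), and ARG2, acetylglutamate synthase (-0.67). In K655/657R YOR302W (1.17) was called higher in YPD, and ORT1 (0.40) and ARG2 (0.37) were not called. With ACT1 scaling none of the 3 stayed called in K655/657Q in YPD (YOR302W -0.50, ORT1 -0.30, ARG2 -0.27). YOR302W is 78 bases long, which makes its TPM uncertain. It lies just ahead of CPA1 on the same strand (chrXV:882765-882842), and its reads may come from the same RNA. Its values are therefore not separate from those of CPA1.

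At 15 min YOR302W (-0.76) and ORT1 (-0.60) were called lower in K655/657Q, and at 30 min YOR302W (-1.12). In raffinose only YOR302W was (-0.87), as was CPA1, whose RNA it may share. Of 6 regulators, limma called 0 between K655/657Q and WT in any of the 4 conditions, with 3, 2, 4 and 4 at an unadjusted p under 0.05 in YPD, raffinose, 15 and 30 min, where 49.7%, 34.2%, 34.3% and 33.6% of all genes had one. GCN4 was at 921 and 983 scaled TPM in K655/657Q against 1349 and 1358 in WT in YPD (log2 -0.51, under the fold threshold), and at 815 and 831 against 1172 and 1194 at 30 min (log2 -0.52). In raffinose GCN4 was at 1411 and 1324 against 1444 and 1433 (log2 -0.07), and at 15 min at 1186 and 1308 against 1473 and 1562. GCN4 is controlled in large part at translation, which RNA levels do not show. Scaled to ACT1 the GCN4 difference in YPD was -0.06, and MCM1, a MADS box factor, was the 1 regulator called there, as higher.

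Among the genes for the steps after arginase, DUR1,2 and PUT1 were called lower in K655/657Q in YPD and higher at 15 min. DUR1,2, for the urea amidolyase that degrades the urea made by Car1, was at 7.29 and 7.86 scaled TPM in K655/657Q and 52.7 and 49.4 in WT in YPD (log2 -2.60, SE 0.09, adjusted p = 2.4e-11, limma). At 15 min it was at 69.4 and 79.0 against 43.8 and 52.3 (log2 0.62). PUT1, for proline oxidase, had the same directions, with 7.25 and 7.79 against 27.0 and 24.3 in YPD (log2 -1.64) and 20.3 and 23.1 against 11.4 and 11.1 at 15 min (log2 0.89). Of 9 genes of the urea and proline steps, 3 were called lower in YPD (DUR3 with -0.64 besides these, 7.06% of all genes) and 3 higher at 15 min (PUT4, for the proline permease, with 0.59 besides these, 2.27% of all genes). In raffinose PUT4 alone was called, as lower (-0.70), and at 30 min PUT1 (0.61) and DUR3 (0.59) were higher. Scaled to ACT1, 1 of the 9 was called higher at 15 min, and in YPD 2 were called lower and 2 higher.

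Of 9 transport genes 8 passed the filter, and 2 were called lower in YPD, the general permease gene GAP1 (-1.14) and the arginine permease gene CAN1 (-0.76, not called with ACT1 scaling or on TPM as deposited), with 0 called in the other conditions. Of 5 polyamine genes, which draw on ornithine, 1 was called, SPE3 for spermidine synthase, lower at 30 min (-0.59). Among 13 genes of histidine and lysine synthesis, 4 were called lower in K655/657Q in YPD, 0 in raffinose, 8 at 15 min and 10 at 30 min, so lower values after the pulse were also seen outside arginine genes. The shares of all genes called lower were 7.06%, 2.17%, 2.47% and 2.80%. In YPD the 4 were HIS4 (-1.51), HIS5 (-1.15), LYS1 (-0.88) and LYS2 (-0.66). At 15 min they were HIS4 (-1.16), LYS1, LYS2, LYS4, LYS9, LYS12, LYS20 and LYS21, led by LYS1 (-1.52), and at 30 min these and HIS1 and HIS5, again led by LYS1 (-1.53). All strains carry a his3 allele.

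**Figure D4:**
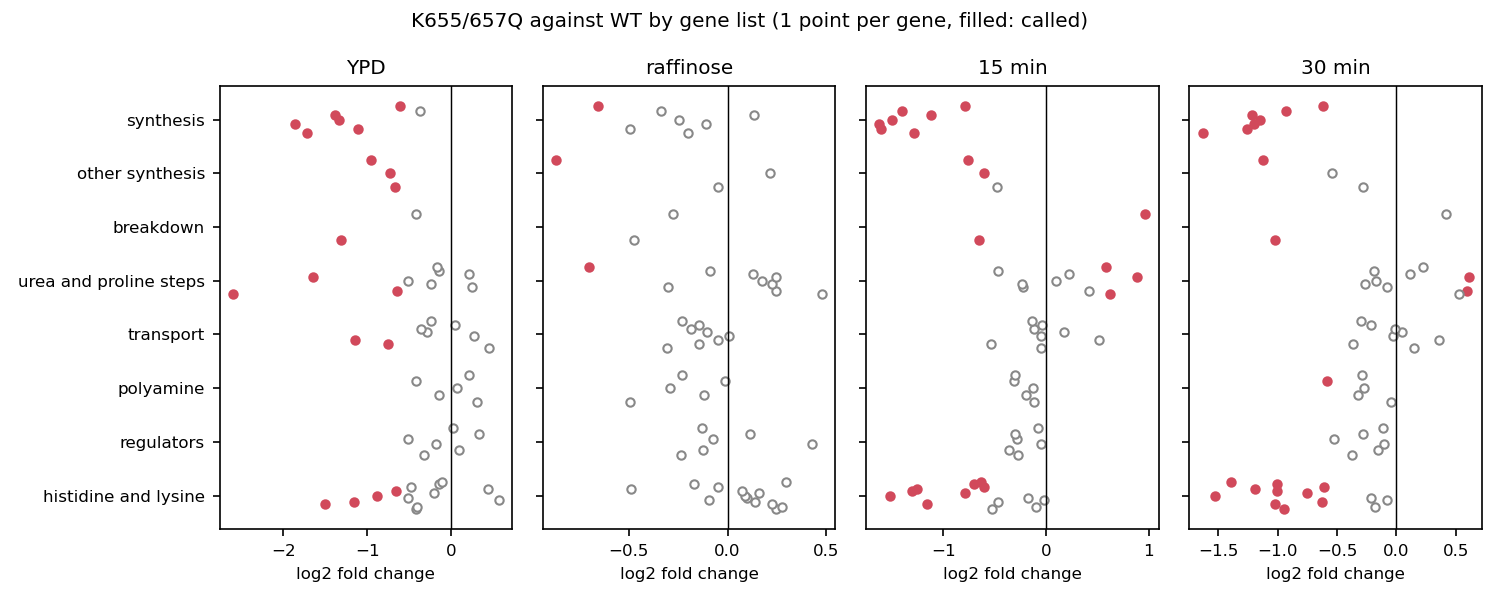
Log2 fold changes of K655/657Q against WT (horizontal, a scale of its own in each panel) for each gene of 8 lists (vertical) in the 4 conditions, filled where called. In YPD the synthesis and other synthesis genes lie below 0 and DUR1,2 at -2.60 is farthest left, while at 15 min CAR2 at 0.97 and PUT1 at 0.89 lie to the right.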

How the data were processed

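The authors deposited TPM for 24 libraries, a unit that kallisto 0.48.0 estimated from reads trimmed by fastp 0.23.2 and checked with FastQC 0.11.9 and MultiQC 1.12, using Ensembl transcripts of build R64-1-1 (release 109). The authors tested with DESeq2, which needs counts and was not run here. Deposited TPM were divided by median-of-ratios size factors (0.802 to 1.14) and transformed as log2(value + 1). The genes at a mean TPM of 1 or more were fitted with limma 3.58.1 (lmFit, eBayes with trend) in R 4.3.3, with 1 mean per group, 23 libraries and 11 residual degrees of freedom, for 19 comparisons. Motifs and positions came from the RefSeq copy of R64 with Python 3.11.15, and figures from matplotlib 3.10.9. The code was tested on simulated data. No libraries were identical. All 9 members are named, and other genes came from lists by role, of which those called between strains, the regulator GCN4 and the 5 genes nearest in pattern are named. Members and lists were chosen with earlier results of these data known. Alternatives changed the pseudocount, filter, scaling, samples fitted and replicate block, or left out each library. 1 further synthesis gene, set down for that list at first, is not reported here and is in no count.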

Additional observations from a re-analysis of the deposited data

Results flagged for a closer look

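The difference between K655/657Q and WT was not the same in raffinose as in YPD, by limma's test of the interaction, for 6 of the 9 genes. The changes of the log2 difference from YPD to raffinose were ARG1 1.52, ARG3 0.62, ARG4 1.76, ARG5,6 1.08, ARG7 1.52 and CAR1 0.84, with adjusted p from 1.3e-07 to 0.011.

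The 15 min response to glucose differed between K655/657Q and WT, by the same kind of test, for 7 genes. On the log2 scale the K655/657Q response less the WT response was ARG1 -1.09, ARG3 -1.11, ARG4 -1.51, ARG5,6 -1.25, ARG7 -1.26, ARG8 -1.07 and CAR2 1.24, with adjusted p from 9.2e-06 to 0.0012. CAR2 was the 1 gene among them with a positive value.

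The 30 min response differed for 7 genes as well. The values were ARG1 -1.43, ARG3 -0.76, ARG4 -1.09, ARG5,6 -0.90, ARG7 -1.35, ARG8 -0.59 and CAR2 0.69, with adjusted p from 2.4e-05 to 0.020. The 15 and 30 min tests share the raffinose libraries of both strains, so the second is not independent of the first.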

How the results depend on the processing

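The counts of members called stayed within 1.5 times their main value under the pseudocounts, filters, scalings, fits of the compared groups alone and all 24 libraries, with 1 exception in 19 comparisons. K655/657Q against WT in raffinose gave 3 members with scaling to ACT1 in place of 1, and 0 to 2 when single libraries were left out. The median span of the 9 genes over the groups was 7.13-fold, 9.68-fold scaled to ACT1, and 6.90-fold to 7.85-fold when replicate 1 or 2 was left out of every group with 2 libraries in the fit. No called member changed sign under any of these settings.

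Values that were not called changed sign in 21 cases. With ACT1 scaling these were ARG3 (0.20) and ARG8 (0.35) from YPD to raffinose in K655/657R, ARG5,6 (0.18) in WT, ARG4 (0.27) and CPA1 (0.28) at 30 min in K655/657Q and CPA1 (0.073) in WT, CAR1 at 15 min in K655/657R (0.15) and WT (0.030), ARG8 (0.051) and CAR2 (0.022) for K655/657Q in YPD, ARG7 (-0.0070) for K655/657Q in raffinose, and ARG8 (-0.53) and CAR2 (-0.44) for the change of the K655/657Q difference. On TPM as deposited they were ARG3 (0.015), ARG8 (0.17) and, in K655/657Q, ARG4 (0.0098) from YPD to raffinose, and ARG8 (-0.16) and CAR2 (-0.061) for the change. With upper quartile scaling they were ARG4 (0.062) and CPA1 (0.063) at 30 min in K655/657Q and ARG8 (-0.00044) for the change.

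With single libraries left out, 6 values that were not called crossed 0, of which ARG8 and CAR2 are also among the cases above. For the change of the K655/657Q difference from YPD to raffinose the ranges were -0.12 to 0.19 for ARG8, -0.0010 to 0.27 for CAR2 and -0.17 to 0.075 for CPA1. CPA1 also ranged from -0.28 to 0.025 for the 15 min and -0.084 to 0.16 for the 30 min difference of responses, and from -0.050 to 0.50 from YPD to raffinose in K655/657R. From YPD to raffinose, ACT1 scaling added calls of ARG8 (1.08), CAR1 (1.03) and ARG3 (0.84) in WT and of CPA1 (0.85) in K655/657R, and at 30 min it ended that of CAR1 in K655/657Q (-0.45). Among single genes, 25 calls were lost and 19 gained under other settings of the whole fit, and 19 lost and 10 gained with a library left out.

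Whether the replicate numbers pair the samples is not known. Same-numbered deviations correlated at -0.35 to 0.31 over 15 pairs of groups, with 5 above 0.1, which does not settle it. A fit with the replicate block gave 7 members called for K655/657Q in YPD and the same counts as the main fit in all 19 comparisons. Crossed numbers were tried after seeing the data where the correlation was under -0.1. They gave 7 and 8 members for K655/657Q against WT in YPD and at 30 min. Within K655/657Q they gave 5 from YPD to raffinose and 5 from raffinose to 15 min. With unknown depth, no counting error can be given for the lower genes such as ARG8.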
